A study of Homo sapiens with 6 samples.

Results

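The long noncoding RNA genes that carry a LINC symbol followed by a number were examined in LN229, an established human glioblastoma cell line. The deposited tables list 28265 gene symbols, of which 1736 have this form, and 820 of those had at least 1 count in some library. The 229 genes described here are those with a total of at least 60 counts over the 6 libraries together. They were thus chosen by abundance, on a total that takes both groups together and not on the difference between them. The 2 genes just inside the limit were LINC02649, with counts of 9, 17 and 4 in the control group and 9, 7 and 15 in the libraries labelled knockdown, and LINC00884, with 13, 9 and 7 against 10, 6 and 17. The 2 just outside were LINC00028, with 13, 9 and 12 against 11, 5 and 9, and LINC00634, with 7, 14 and 11 against 12, 1 and 14.

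The control group was 3 libraries of LN229 cells labelled with the genotype WT, and the other group was 3 libraries of LN229 cells labelled TRIM25 knockdown. The design text names the knockdown as a short hairpin RNA against TRIM25, an RNA-binding E3 ubiquitin ligase. What the control cells carried is not spelled out in the labels, and neither is the number of hairpins, clones or separate cultures behind the 3 libraries of a group, so the p-values measure the spread between these libraries, which may be technical. Cells of both groups were grown in the same serum-containing medium, and stranded libraries were built from total RNA.

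Long noncoding RNAs are transcribed by RNA polymerase II and are mostly capped and spliced like messenger RNAs, but they encode no known protein. They are usually less abundant than messenger RNAs and more restricted to certain tissues. Some act on the gene next to which they are transcribed, others serve as scaffolds or decoys for proteins or microRNAs, and for most genes that carry only a LINC symbol no function is established. A symbol of this kind is given to a gene that lies between protein-coding genes and has no better-grounded name.

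The libraries held between 11349865 and 16404725 counts on genes. Of all genes, 14315 had enough counts to be tested with edgeR's quasi-likelihood test, and 3330 of them, 23.3%, had a Benjamini-Hochberg adjusted p under 0.05, the threshold for a call throughout. Relative to the control, 1753 were higher and 1577 lower. TRIM25 itself went against its label: it had 561, 493 and 563 counts in the control group and 964, 905 and 1443 in the libraries labelled knockdown, a log2 fold change of 1.22 ± 0.07 (SE) with an adjusted p of 3.23e-09. All directions below are therefore those of the libraries labelled knockdown relative to the control libraries, and the label's meaning for TRIM25 activity was not tested. Of the glioblastoma and astroglial markers, VIM, NES, CD44, EGFR, SOX2 and S100B had at least 668 counts in every library, whereas GFAP had at most 8. Among the markers of other cell types reported here, AIF1 had 0 counts, PTPRC, PECAM1, CDH5 and RBFOX3 had at most 9, and VWF and MOG at most 33. CD68 and SYT1 had 479 counts or more in every library, and MBP between 29 and 162 with a log2 fold change of -1.90, and the part of such shifts in the results below was not tested.

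The LINC genes were a minor and uneven share of the transcriptome. They took 0.180%, 0.184% and 0.181% of counts in the control group and 0.177%, 0.178% and 0.175% in the other group. The 2 ranges were separate, and the means were 0.181% ± 0.00189 and 0.177% ± 0.00174 (SD, n = 3). With 3 libraries against 3, a two-sided exact permutation test cannot go below its value here, p = 0.1. The separation rested on single genes. Without LINC00673 and LINC01004 the shares were 0.151%, 0.155% and 0.152% in the control group and 0.153%, 0.156% and 0.151% in the other group, and the ranges overlapped. LINC00673 alone held 12.1% of the 152601 counts on these genes, and the 10 genes with the most counts held 36.5%.

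Per unit of length, on the deposited transcript scale (TPM), the mean level over the 6 libraries ran from 0.403 to 233, with a median of 4.56. Of the 229 genes, 53 reached 10 TPM, 160 lay between 1 and 10, and 16 lay under 1. The gene models were short, with a median of 2017 bp against 3592 bp over all tested genes. In RefSeq, 227 of the 229 are annotated as long noncoding RNA genes. The other 2 are annotated as protein-coding: LINC00672, there called LASP1NB, and LINC01279, there called CCDC80. A further name applies to several of the rest, such as CHASERR for LINC01578, MIR9-2HG for LINC00461 and SNHG33 for LINC00888. In the annotation used for overlaps, GENCODE, 218 of the genes were found, and 31 shared at least 100 bp of exon with another gene on the same strand and 34 with a gene on the opposite strand. How the counting treated strand and shared exons is not given in the sources used here, so reads from such pairs may be mixed.

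**Figure D1:**
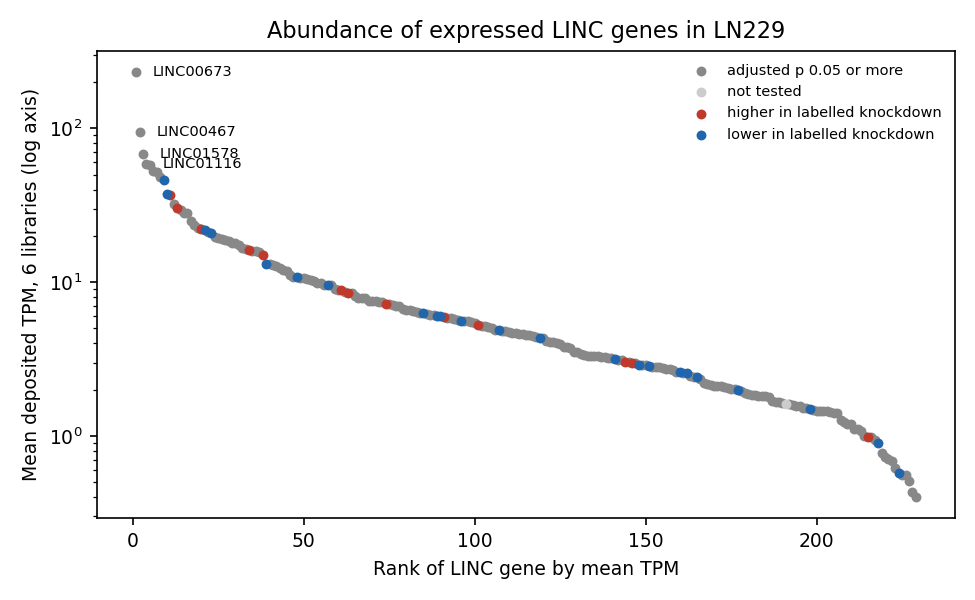
Mean deposited TPM over the 6 libraries (log axis) of the 229 expressed LINC genes, ordered by rank on the horizontal axis, with 1 point per gene coloured by its call between the groups. LINC00673 stands first at 233 TPM, and the called genes are spread along the whole range below the 8 most abundant.

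Between the groups, 228 of the 229 LINC genes could be tested, and 36 of them, 15.8%, were called, against 23.3% of all tested genes. Of the 228 tested LINC genes, 13 were called as rising and 23 as falling. Of all 14315 tested genes, 1753 were called as rising, 12.2%, and 1577 as falling, 11.0%. As a share of the genes tested, called falls were thus about as common among the LINC genes as among all genes. Called rises were less common among the LINC genes. The remaining 192 tested LINC genes were not called. The median log2 fold change over the 228 was -0.03, beside -0.00 over all tested genes. In CPM, the count scaled by library size, the 2 groups were fully separate for 76 of the 228, or 33.3%, against 37.3% of all tested genes, and these 76 included all 36 called genes. LINC01315, the gene that was not tested, had 20, 5 and 14 counts in the control group and 7, 7 and 9 in the group labelled knockdown.

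The LINC genes were measured at lower counts than most genes. They had a median of 1.33 on the log2 CPM scale against 4.88 for all tested genes, and the median SE of their log2 fold change was 0.23 against 0.09. Among the 141 LINC genes with a mean log2 CPM under 2, 17 were called, 12.1%, beside 13.3% of all genes at that level, with 3 higher and 14 lower. All genes at that level were also called lower more often, 9.98% against 3.31% higher. Among the 87 LINC genes with a mean log2 CPM of 2 or more, 19 were called, 21.8%, beside 25.3% of all genes at that level, with 10 higher and 9 lower. All genes at that level were called higher in 14.1% and lower in 11.2%. Of the 36 called LINC genes at either level, 7 were lower and 1 was higher by at least 2-fold. No matching count was made over all genes, so this imbalance cannot be set against them.

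**Figure D2:**
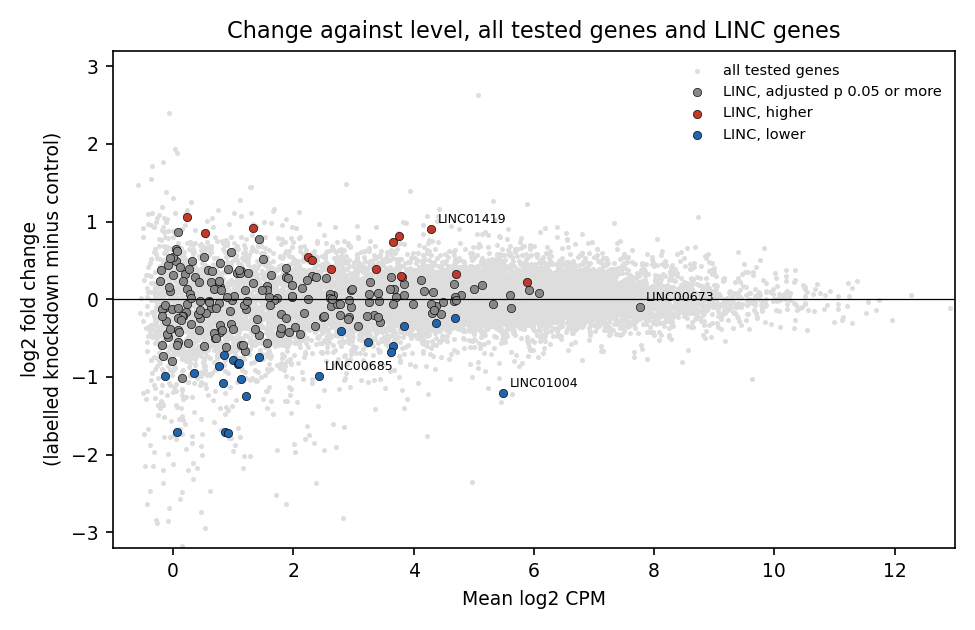
Log2 fold change (libraries labelled knockdown minus control) against mean log2 CPM, with 1 grey point per tested gene and larger coloured points for the LINC genes; 5 genes lie outside the axes. The LINC genes crowd to the left of the cloud, where the spread of all genes is widest, and 14 of the 17 called LINC genes under a log2 CPM of 2 lie below 0.

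Calls differed in how firmly the libraries supported them, and 13 of the 36 were called in every one of 13 further fits: 6 that each left out 1 library and 7 that changed the tool, the scaling, the filter, the length adjustment or the replicate block. Their highest adjusted p in any of those fits was 0.0415. Of these 13 genes 10 fell and 3 rose. LINC01447, among the falls, had enough counts to be tested in the control group alone, so its calls are given as values only. LINC00537, LINC00888 and LINC01355 are named among them because the whole set is described, and were chosen after their values were seen.

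LINC01004, whose right-hand neighbour is the histone methyltransferase-family gene KMT2E, was the most abundant of the genes that fell. It had 968, 910 and 942 counts in the control group and 295, 318 and 451 in the group labelled knockdown. The lowest control library stood at more than double the highest count of the other group, and the groups lay far apart. Its CPM went from 62.2 ± 3.39 to 26.8 ± 1.93 (SD, n = 3), a log2 fold change of -1.21 ± 0.08 (SE, 95% interval -1.38 to -1.05) with an adjusted p of 1.34e-08. At 13.2 TPM it ranked 39 of the 229, with a gene model of 9419 bp.

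Among the genes called in every fit, LINC01411, LINC01198 and LINC01447 fell the most, each by more than 3-fold, from low levels. LINC01411 had 44, 36 and 38 counts in the control group and 10, 7 and 14 in the group labelled knockdown, or 2.59 ± 0.182 against 0.770 ± 0.132 CPM, a log2 fold change of -1.72 ± 0.26 (SE) with an adjusted p of 0.000132. LINC01198 had 36, 48 and 29 against 11, 4 and 15, with a log2 fold change of -1.71 ± 0.33 and an adjusted p of 0.00142. LINC01447 had 15, 24 and 22 against 8, 4 and 4, with a log2 fold change of -1.71 ± 0.40 and an adjusted p of 0.00544. In all 3 the control libraries stood above every library labelled knockdown, but the gap was narrow in counts for LINC01447. LINC01447 had enough counts to be tested in the control group alone. A gene that passes the filter through its higher group is bound to differ, so its separation and its calls are given as values only. LINC01198 is 1 of 9 called LINC genes that overlap an exon of another gene by at least 100 bp, here over 178 bp with a noncoding gene, so its counts may include reads of that gene. The other 8 are LINC00174, LINC00472, LINC00707, LINC00888, LINC01089, LINC01119, LINC01730 and LINC01881, with 131 bp to 1724 bp shared.

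LINC00482, LINC02620 and LINC00685 fell by about 2-fold. LINC00482 had 41, 46 and 49 counts in the control group and 14, 11 and 25 in the group labelled knockdown, a log2 fold change of -1.24 ± 0.24 (SE) with an adjusted p of 0.00115. LINC02620 had 38, 46 and 38 against 18, 16 and 18, a log2 fold change of -1.03 ± 0.24 with an adjusted p of 0.00588. LINC00685, in the pseudoautosomal region shared by the sex chromosomes, had 88, 123 and 98 against 49, 30 and 57, a log2 fold change of -0.99 ± 0.20 with an adjusted p of 0.00161. The control libraries were the higher ones throughout, and no library crossed into the range of the other group. LINC00685 varied most within the controls, where replicate 2 was the highest.

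LINC01355, LINC00888 and LINC00537 fell by less, between 1.46-fold and 1.60-fold. LINC01355, which lies beside the splicing-factor gene HNRNPR, had 255, 183 and 241 counts in the control group and 109, 98 and 162 in the group labelled knockdown, or 14.9 ± 1.42 against 9.23 ± 0.651 CPM, with a log2 fold change of -0.68 ± 0.11 (SE) and an adjusted p of 0.000295. LINC00888, a small nucleolar RNA host gene by its RefSeq name, had 241, 201 and 236 against 113, 111 and 166, or 14.9 ± 0.292 against 9.80 ± 0.386 CPM, with a log2 fold change of -0.60 ± 0.10 and an adjusted p of 0.00036. LINC00537 had 175, 143 and 179 against 83, 94 and 118, or 10.9 ± 0.485 against 7.49 ± 0.729 CPM, with a log2 fold change of -0.55 ± 0.12 and an adjusted p of 0.00253. The 2 groups were apart in each, and the libraries within a group were close to each other in CPM.

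The 3 genes that rose in every fit were all of middling or high abundance among the LINC genes. LINC01419 had 233, 175 and 215 counts in the control group and 313, 287 and 415 in the group labelled knockdown, or 13.7 ± 0.982 against 25.6 ± 0.383 CPM. Its log2 fold change was 0.91 ± 0.09 (SE) with an adjusted p of 1.68e-06, and at 36.6 TPM it ranked 11 of the 229. LINC01239, which lies between DMRTA1 and the neuronal RNA-binding protein gene ELAVL2, had 161, 134 and 150 against 181, 199 and 303, or 9.78 ± 0.322 against 17.1 ± 1.81 CPM, with a log2 fold change of 0.81 ± 0.11 and an adjusted p of 3.79e-05. LINC00460, studied as a transcript that is raised in several carcinomas, had 136, 127 and 167 against 187, 196 and 237, or 9.44 ± 1.03 against 15.8 ± 1.41 CPM. Its log2 fold change was 0.73 ± 0.11 with an adjusted p of 0.000169. Every library labelled knockdown stood above every control library for these 3 genes, and the gap was widest for LINC01419.

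**Figure D3:**
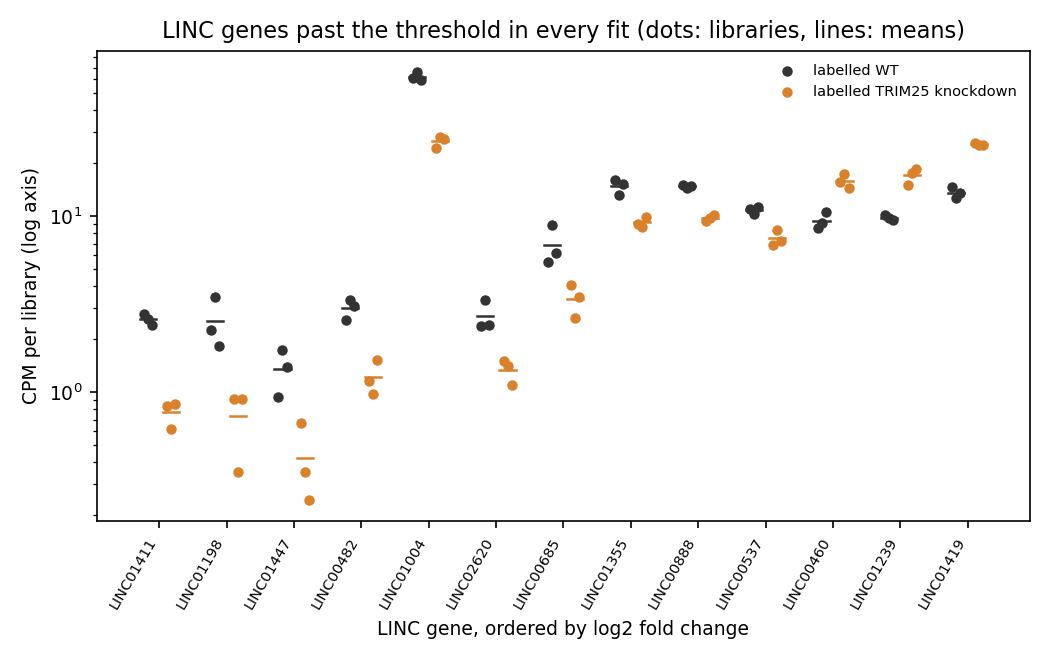
CPM in each library (log axis) of the 13 LINC genes called in every fit, ordered from the largest fall on the left to the largest rise on the right, with dots for libraries and lines for group means. The dots of the 2 groups are separate for every gene, and LINC01004 stands above the others at 62.2 CPM in the controls. LINC01447 passed the filter through the control group alone, so its separation is no added support.

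Promoter sequences of the genes called in every fit are shown to compare genes that fell with one that rose, and are printed for 7 of the 13 from the RefSeq table (build GRCh38.p14). The others are either absent from that table or lie on a chromosome left out of the print. Each runs from 250 bases before the start site to 50 after it, 5′ to 3′ on the gene's own strand, with letters in capitals where they match, on either strand, one of 7 motifs searched: TATAAA, the TATA box, CCAAT, the NF-Y box, GGGCGG, the GC box, CACGTG, the E-box bound by MYC and MAX, TGACTCA, the AP-1 element, TGACGTCA, the cAMP response element, and GGAAGTGN, an ETS-type element. Overlapping matches appear as 1 run of capitals. The first 6 below belong to genes that fell and the last to a gene that rose.
LINC01411 promoter, chr5:174336104-174336403, plus strand: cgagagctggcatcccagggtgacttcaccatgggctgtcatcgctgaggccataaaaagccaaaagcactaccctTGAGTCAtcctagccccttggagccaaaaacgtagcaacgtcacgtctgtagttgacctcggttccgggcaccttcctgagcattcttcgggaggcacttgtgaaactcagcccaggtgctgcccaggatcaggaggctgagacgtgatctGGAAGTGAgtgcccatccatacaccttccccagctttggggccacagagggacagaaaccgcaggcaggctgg
LINC00482 promoter, chr17:81309199-81309498, minus strand: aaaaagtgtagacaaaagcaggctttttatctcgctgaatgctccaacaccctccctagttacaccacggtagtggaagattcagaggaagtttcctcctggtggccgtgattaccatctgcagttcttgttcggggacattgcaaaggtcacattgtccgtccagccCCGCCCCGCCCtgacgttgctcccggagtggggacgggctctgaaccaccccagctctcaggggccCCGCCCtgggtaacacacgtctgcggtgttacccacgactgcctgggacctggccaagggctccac
LINC02620 promoter, chr10:104480226-104480525, minus strand: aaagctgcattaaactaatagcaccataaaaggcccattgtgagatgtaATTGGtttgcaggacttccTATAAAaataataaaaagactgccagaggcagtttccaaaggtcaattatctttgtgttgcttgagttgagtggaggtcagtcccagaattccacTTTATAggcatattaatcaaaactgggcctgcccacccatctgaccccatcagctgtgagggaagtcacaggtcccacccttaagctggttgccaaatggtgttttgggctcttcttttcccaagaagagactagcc
LINC00685 promoter, chrX:318895-319194, plus strand: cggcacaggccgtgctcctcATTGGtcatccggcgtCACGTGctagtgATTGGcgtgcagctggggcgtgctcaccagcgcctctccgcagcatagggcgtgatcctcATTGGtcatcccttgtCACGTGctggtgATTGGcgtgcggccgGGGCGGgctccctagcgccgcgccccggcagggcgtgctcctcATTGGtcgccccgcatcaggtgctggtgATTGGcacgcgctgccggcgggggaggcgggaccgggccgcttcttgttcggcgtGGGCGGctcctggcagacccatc
LINC01355 promoter, chr1:23285469-23285768, minus strand: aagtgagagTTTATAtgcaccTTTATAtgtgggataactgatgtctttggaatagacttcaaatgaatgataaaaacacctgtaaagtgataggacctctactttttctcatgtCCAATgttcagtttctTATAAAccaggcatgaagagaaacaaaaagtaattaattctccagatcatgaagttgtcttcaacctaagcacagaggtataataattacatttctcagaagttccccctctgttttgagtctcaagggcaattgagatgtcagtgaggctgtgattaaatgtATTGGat
LINC00888 promoter, chr3:183447358-183447657, plus strand: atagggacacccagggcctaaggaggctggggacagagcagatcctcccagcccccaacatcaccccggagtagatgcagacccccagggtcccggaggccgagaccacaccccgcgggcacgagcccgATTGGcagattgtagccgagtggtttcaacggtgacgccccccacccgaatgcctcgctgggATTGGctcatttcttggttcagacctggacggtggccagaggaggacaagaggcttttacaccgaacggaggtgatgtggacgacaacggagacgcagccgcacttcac
LINC00460 promoter, chr13:106376314-106376613, plus strand: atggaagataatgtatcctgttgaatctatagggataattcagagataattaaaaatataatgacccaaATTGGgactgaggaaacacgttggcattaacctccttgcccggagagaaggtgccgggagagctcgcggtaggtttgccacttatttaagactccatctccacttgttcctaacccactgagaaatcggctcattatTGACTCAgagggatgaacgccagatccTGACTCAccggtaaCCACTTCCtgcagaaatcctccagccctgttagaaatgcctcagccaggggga

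The 7 sequences differed widely from each other. LINC00685, the most GC-rich at 69.7%, holds 6 matches to CCAAT, 2 to CACGTG and 2 to GGGCGG, whereas LINC01355 has 35.3% GC, 0 CpG dinucleotides, 3 matches to TATAAA and 2 to CCAAT. LINC02620 also has 0 CpG dinucleotides and holds 2 matches to TATAAA and 1 to CCAAT. LINC00460, which rose, holds 2 matches to TGACTCA, whose first bases lie at -44 and -17 from the start site, with 1 to CCAAT and 1 to GGAAGTGN. LINC01411, which fell by a log2 fold change of -1.72, also holds a match to TGACTCA, at -174, and 1 to GGAAGTGN, at -23. LINC00482 holds 3 matches to GGGCGG, and LINC00888 holds 2 to CCAAT. A match is a run of letters and not evidence of binding.

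Across the wider set, promoters were available for 165 of the 229 LINC genes, and in base composition they lay nearer to all promoters than to those of other LINC genes. The median GC content was 59.3%, against 47.0% in 1434 other LINC promoters, 58.3% in all 27305 promoters and 62.7% in those of 15843 protein-coding genes. The observed-to-expected ratio of CpG dinucleotides had a median of 0.561, against 0.238, 0.580 and 0.763 in those sets. GGGCGG was present in 47.9% of the 165, in 44.6% of all promoters and in 15.3% of the other LINC promoters. TATAAA was present in 10.9%, 12.0% and 16.9%, and CCAAT in 43.0%, 35.7% and 35.2%. TGACTCA was present in 10.3%, or 17 of the 165, against 4.92% of all promoters and 7.67% of the other LINC promoters. CACGTG was present in 8.48%, 7.43% and 4.6%, TGACGTCA in 1.82%, 1.98% and 0.907%, and GGAAGTGN in 10.3%, 11.5% and 8.44%. These shares describe the annotated starts, and which starts LN229 cells use was not measured.

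Another 23 LINC genes were called on all 6 libraries but lost the call in at least 1 of the further fits, 13 of them lower and 10 higher, with totals between 66 and 5050 counts. The highest adjusted p that leaving out a library gave them ran from 0.0586 to 0.205. They include 3 of the better-measured genes. LINC00473, a transcript known to be induced by cyclic AMP signalling through CREB, had 386, 315 and 349 counts in the control group and 307, 349 and 497 in the group labelled knockdown. The groups were separate in CPM, 23.1 ± 1.12 against 29 ± 2.95, but not in raw counts. Its log2 fold change was 0.33 ± 0.09 (SE) with an adjusted p of 0.0124, which became 0.0588 without control replicate 2, 0.0618 without control replicate 3, 0.0754 without knockdown replicate 2 and 0.0510 with the replicate block. LINC01389, which starts head to head with FOXD2, had 237, 237 and 248 counts against 160, 139 and 195, a log2 fold change of -0.35 ± 0.10 with an adjusted p of 0.0180. Without control replicate 2 the adjusted p was 0.105, without knockdown replicate 2 it was 0.0715 and without knockdown replicate 3 it was 0.0654. LINC01089, described as a tumour suppressor transcript in breast cancer, had 345, 311 and 375 against 246, 202 and 279, a log2 fold change of -0.30 ± 0.09 with an adjusted p of 0.0251, and it shares 1724 bp of exon with RHOF on the same strand. Without control replicate 2 or 3 or knockdown replicate 2 or 3 its adjusted p was 0.0811, 0.108, 0.103 and 0.107.

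Among the other genes of this kind that fell, LINC02875, next to TBX2, had 25, 31 and 43 counts in the control group and 7, 11 and 23 in the group labelled knockdown. Its log2 fold change was -1.07 ± 0.31 (SE) with an adjusted p of 0.0182, and this became 0.0606 without control replicate 2, 0.0982 without control replicate 3 and 0.0646 without knockdown replicate 2. LINC01252 had 15, 12 and 19 against 6, 5 and 9, with a log2 fold change of -0.99 and an adjusted p of 0.0487 that lay between 0.0699 and 0.194 whichever library was left out. LINC01252 also had enough counts to be tested in the control group alone, so its values too are description only. The remaining falls past the threshold had log2 fold changes of -0.95 for LINC01119, -0.86 for LINC01730, -0.83 for LINC01819, -0.82 for LINC00942, -0.79 for LINC01977, -0.75 for LINC01311 and -0.72 for LINC00707. LINC02035 at -0.41 and LINC01963 at -0.24 had the smallest of these. Except for LINC02035 and LINC01963, these had at most 54 counts in any library. The highest adjusted p that a left-out library gave was 0.115 for LINC01119 without control replicate 2, 0.111 for LINC01730 without control replicate 3, 0.194 for LINC01819 without knockdown replicate 3, 0.109 for LINC00942 without knockdown replicate 2, 0.0872 for LINC01977 without control replicate 3, 0.0694 for LINC01311 without knockdown replicate 3, 0.188 for LINC00707 without knockdown replicate 3, 0.146 for LINC02035 without knockdown replicate 2 and 0.119 for LINC01963 without control replicate 3. LINC00707, LINC01963, LINC02035 and LINC01089 were named to complete the set, after their values were seen.

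LINC01711, beside APCDD1L, was 1 of the rises that lost the call in at least 1 further fit. It had 26, 31 and 19 counts in the control group and 39, 40 and 46 in the group labelled knockdown. Its log2 fold change was 0.92 ± 0.23 (SE) with an adjusted p of 0.00883, and only the fit without control replicate 3 raised it past the threshold, to 0.0586. LINC02605 had 12, 7 and 12 against 11, 17 and 29, with a log2 fold change of 1.06 ± 0.33 and an adjusted p of 0.0275. Among the LINC genes with a total of at least 60 counts, it alone was called higher by at least 2-fold. Its groups were separate in CPM but overlapped in counts, and the adjusted p was 0.113 without control replicate 2, 0.0593 without control replicate 3, 0.0842 without knockdown replicate 2 and 0.17 without knockdown replicate 3. The other log2 fold changes were 0.86 for LINC00471, 0.54 for LINC01881, 0.51 for LINC01910, 0.40 for LINC00472, 0.39 for LINC01410, 0.30 for LINC00174 and 0.22 for LINC00674. Their highest adjusted p with 1 library left out was 0.127 for LINC00471 without knockdown replicate 1, 0.0764 for LINC01881 without control replicate 3, 0.127 for LINC01910 without control replicate 2, 0.167 for LINC00472 without control replicate 3, 0.176 for LINC01410 without control replicate 3, 0.205 for LINC00174 without control replicate 2 and 0.164 for LINC00674 without knockdown replicate 3. LINC00674, at 54.9 ± 2.07 against 63.8 ± 4.92 CPM, had the highest CPM of them, and its adjusted p of 0.0340 became 0.493 in the fit adjusted for gene length, with a log2 fold change of 0.07.

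**Figure D4:**
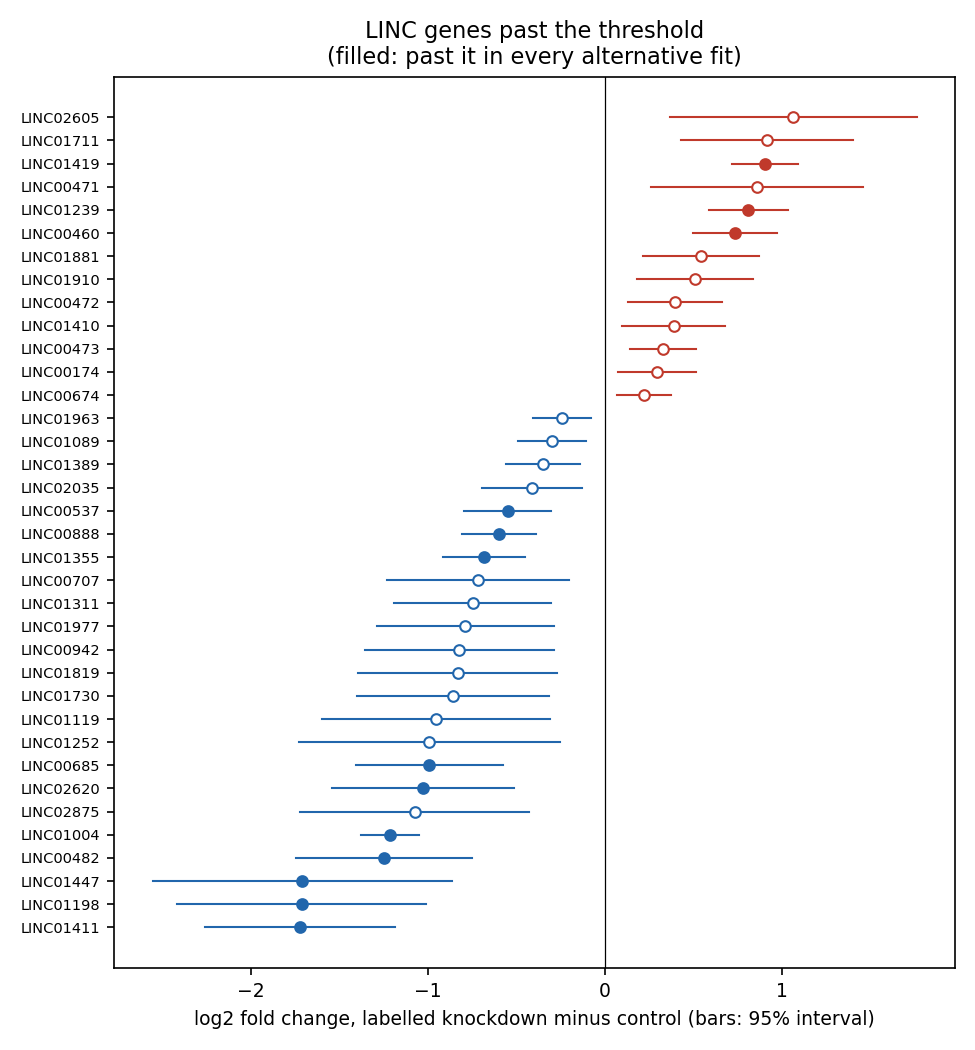
Log2 fold change (libraries labelled knockdown minus control) with its 95% interval for the 36 called LINC genes, 1 row per gene, with filled points for the 13 called in every fit. The largest falls, at -1.72 and -1.71, are larger in size than the largest rise, 1.06, and most intervals of the open points end close to 0.

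The most abundant LINC genes were not called. Of the 8 with the highest TPM, 0 passed the threshold in edgeR, limma-voom or DESeq2, while edgeR's unadjusted p was under 0.05 for 2 that were higher and 1 that was lower. LINC00673, which lies beside SOX9 and had the highest level, 233 TPM, had 3608, 2973 and 3655 counts in the control group and 2639, 2255 and 3405 in the group labelled knockdown. The groups overlapped in CPM, 225 ± 8.06 against 209 ± 10.3, and the log2 fold change was -0.10 ± 0.06 (SE, 95% interval -0.22 to 0.02) with an adjusted p of 0.220. LINC00467, at 94.1 TPM, had 342, 332 and 397 against 307, 326 and 436, with a log2 fold change of 0.20 ± 0.09 and an adjusted p of 0.108. LINC00467 did pass in 2 other fits, at 0.35 (adjusted p 0.00366) with the length adjustment and at 0.24 (0.0360) without knockdown replicate 1. LINC01578, called CHASERR in RefSeq and known for acting on the neighbouring CHD2 gene, stood at 68.2 TPM with a log2 fold change of -0.11 and an adjusted p of 0.271.

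LINC01116, from the neighbourhood of the HOXD cluster, stood at 58.3 TPM with 351, 333 and 374 counts in the control group and 240, 250 and 319 in the group labelled knockdown. Its groups overlapped in CPM, and its log2 fold change was -0.18 ± 0.09 (SE) with an adjusted p of 0.131. LINC02732, LINC00963 and LINC00339, at 57.7, 52.8 and 52.4 TPM, had log2 fold changes of 0.06, -0.07 and 0.03, each with an SE of 0.09 or less. Their 95% intervals, from -0.13 to 0.24, from -0.24 to 0.11 and from -0.15 to 0.21, lay within 1.5-fold in either direction. LINC01138, at 48.1 TPM, had groups that did not overlap, a log2 fold change of 0.18 ± 0.07 and an adjusted p of 0.0927, and passed with the length adjustment at 0.24 (adjusted p 0.0136).

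Several LINC genes that are often studied in glioma or other tumours were also measured without a call. LINC00461 is the host transcript of MIR9-2, one of the genes for the neural microRNA miR-9, whose 2 mature arms are shown here from RefSeq because a change in the host would concern both; the seed, bases 2 to 8, is in capitals.
hsa-miR-9-5p, chr5:88666902-88666924, minus strand: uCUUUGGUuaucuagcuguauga
hsa-miR-9-3p, chr5:88666866-88666887, minus strand: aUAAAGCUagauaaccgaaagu
LINC00461 had 245, 239 and 236 counts in the control group and 201, 216 and 336 in the group labelled knockdown, with the third knockdown library the highest. The groups overlapped, at 15.9 ± 1.27 against 18.8 ± 1.95 CPM, and the log2 fold change was 0.25 ± 0.10 (SE, 95% interval 0.04 to 0.47) with an adjusted p of 0.0765. Without knockdown replicate 1 it was called, at 0.34 with an adjusted p of 0.00833. LINC00511 had 148, 143 and 173 counts against 129, 121 and 176, a log2 fold change of 0.08 with a 95% interval of -0.15 to 0.30. LINC00662 and LINC00665 had log2 fold changes of 0.12 and 0.14 with adjusted p-values of 0.515 and 0.355. LINC00941 had 60, 38 and 76 against 40, 27 and 61, and its interval of -0.70 to 0.21 left a wide range of changes possible.

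Protein-coding genes beside the called LINC genes, by order in RefSeq, were looked up in the same fit. Of 42 such flanking pairs, which belong to 28 called LINC genes, the protein-coding gene was called in 12, or 28.6%, against 77 of 271, or 28.4%, beside the LINC genes that were not called. In 7 of the 12 the pair moved in the same direction and in 5 in opposite directions. PKD1L1, a polycystin-family gene beside LINC01447, fell from 3.86 ± 0.238 to 1.73 ± 0.253 CPM (SD, n = 3), a log2 fold change of -1.12 ± 0.20 (SE) with an adjusted p of 0.000579. TBX2, a T-box transcription factor beside LINC02875, fell from 203.1 ± 7.27 to 148.9 ± 13.7 CPM, a log2 fold change of -0.45 ± 0.07 with an adjusted p of 0.000134. CBX8, a Polycomb subunit beside LINC01977, had a log2 fold change of -0.34 ± 0.07. APCDD1L, beside LINC01711, rose with a log2 fold change of 0.27 ± 0.06. MCFD2, which encodes a cargo receptor subunit of the secretory pathway, rose by 0.30 ± 0.06 on the log2 scale beside LINC01119, which fell. PDE10A, a cyclic nucleotide phosphodiesterase whose gene overlaps LINC00473 and is not among the 42 pairs, rose from 6.10 ± 1.0 to 10.7 ± 0.947 CPM, a log2 fold change of 0.81 ± 0.13 with an adjusted p of 0.000384. These 6 genes kept their calls whichever library was left out.

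The other called neighbours lost the call without at least 1 library. FOXD2, a forkhead transcription factor and the head-to-head partner of LINC01389, had a log2 fold change of -0.36 ± 0.09 (SE) with an adjusted p of 0.010, which was 0.0593 without knockdown replicate 3. RUBCNL and LRCH1, on either side of LINC01198, had log2 fold changes of 0.55 and 0.25, opposite to its fall. RUBCNL lost the call without control replicate 2 (adjusted p 0.0710) or knockdown replicate 2 (0.0505), and the highest adjusted p for LRCH1 was 0.186, without control replicate 3. ERC1 beside LINC00942 had 0.27, KPNA2 beside LINC00674 had -0.16, SLC38A10 beside LINC00482 had -0.18 and SLC25A1 beside LINC01311 had -0.26. In that order, these genes kept the call in 3, 1, 1 and 2 of the 6 fits that left out 1 library. Their highest adjusted p was 0.115 for ERC1 without control replicate 3 and 0.138 for KPNA2 without control replicate 3. It was 0.213 for SLC38A10 without knockdown replicate 2 and 0.182 for SLC25A1 without control replicate 3. Several strong LINC changes stood beside genes that were not called. KMT2E, beside LINC01004, had a log2 fold change of 0.02 ± 0.07, HNRNPR, beside LINC01355, had 0.04 ± 0.05, and EFNB2, beside LINC00460, had 0.07 ± 0.07. Head-to-head arrangements within 1000 bp were found for 18 LINC genes, and of the 17 pairs tested 6 had the same sign and 1, LINC01389 with FOXD2, was called in both genes. LINC00685 fell, while its head-to-head partner GTPBP6 had a log2 fold change of -0.18 ± 0.09 and an adjusted p of 0.161.

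**Figure D5:**
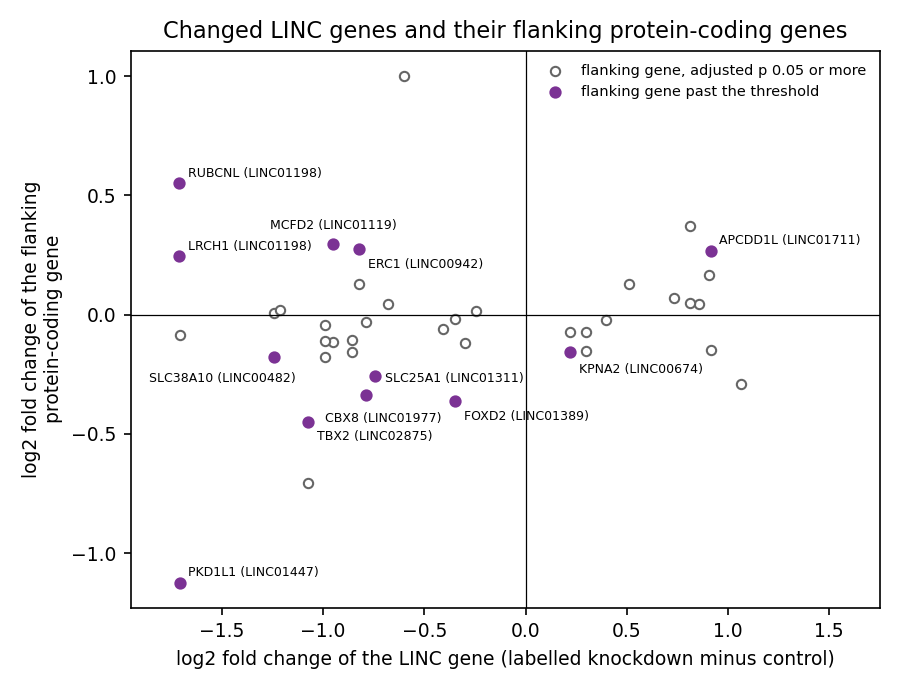
Log2 fold change of each flanking protein-coding gene against that of its called LINC gene, both as libraries labelled knockdown minus control, with filled points where the flanking gene was called. Most flanking genes lie close to 0 whatever the LINC gene did, and PKD1L1, at -1.12, is the farthest from 0.

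Other long noncoding RNA classes, set by symbol alone, were counted in the same fit. Of 403 antisense genes (symbols with -AS), 17 rose and 29 fell, or 11.4% called. Of 49 divergent genes (-DT), 1 rose and 4 fell, or 10.2%. Their median levels were 1.40 and 1.64 on the log2 CPM scale, and of all genes under a log2 CPM of 2 13.3% were called. CHL1-AS2 and STAM-AS1 had the largest antisense falls, with log2 fold changes of -2.32 ± 0.41 and -1.87 ± 0.26 (SE). SLC5A4-AS1 fell by 1.30 on the log2 scale, and SMC5-AS1 had a log2 fold change of 1.30 ± 0.40 that lost its call without control replicate 2 or 3 or knockdown replicate 2 or 3, with adjusted p-values up to 0.17. Among the divergent genes CAPN10-DT fell by 0.64 on the log2 scale. DOCK9-DT, at -1.24, lost its call without control replicate 2 (adjusted p 0.0706) or knockdown replicate 2 (0.0874). CRIM1-DT, at -0.53, lost its call whichever library was left out, and APCDD1L-DT, at 0.34, lost it without control replicate 3 (0.0665) or knockdown replicate 2 (0.0711). SOX2-OT, which overlaps the neural stem cell factor gene SOX2, was the one called gene of 11 in the intronic and overlapping class, at -0.65 ± 0.09, and SOX2 itself fell by 0.66 on the log2 scale.

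Host genes of small RNAs had higher median levels, 2.87 for microRNA hosts and 4.08 for small nucleolar RNA hosts on the log2 CPM scale, where 25.3% of all genes at 2 or more were called. Of all genes at that level, 14.1% were called higher and 11.2% lower. Of 22 microRNA host genes 6 fell, 27.3%, and 0 rose, where edgeR's unadjusted p was under 0.05 for 2 higher genes and limma-voom and DESeq2 called 0. MIR503HG fell from 8.14 ± 0.646 to 4.72 ± 0.524 CPM (SD, n = 3), a log2 fold change of -0.80 ± 0.14 (SE). MIR210HG, host of a hypoxia-induced microRNA, had -0.70 ± 0.11, MIR34AHG, host of the p53 target miR-34a, had -0.41 ± 0.09, and MIR17HG had -0.46 ± 0.16 and lost its call in 5 of the 6 fits without a library. Of 25 small nucleolar RNA host genes 6 fell, 24%, and 0 rose by edgeR (0 also at an unadjusted p under 0.05), limma-voom or DESeq2. SNHG29 fell from 225 ± 18.4 to 179 ± 1.85 CPM, a log2 fold change of -0.32 ± 0.06. SNHG18, SNHG10 and SNHG15 had log2 fold changes of -0.49, -0.40 and -0.35, with adjusted p-values of up to 0.0917, 0.128 and 0.180 without 1 library.

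Well-known long noncoding RNAs without a LINC symbol were called in 9 of 28, 32.1%, with 2 higher and 7 lower. Of all genes, 23.3% were called. Of those with a mean log2 CPM of 2 or more, 25.3% were called, 14.1% higher and 11.2% lower. H19, an imprinted transcript, had the largest change, from 16.2 ± 0.764 to 8.67 ± 1.61 CPM (SD, n = 3), a log2 fold change of -0.91 ± 0.12 (SE). HOTAIRM1, from the HOXA cluster, had -0.49 ± 0.11. TP53TG1 had -0.40 ± 0.11, and its adjusted p rose to 0.0797 without control replicate 3 and to 0.0723 without knockdown replicate 2. MIR17HG belongs to this list as well. Genes whose products process or degrade nuclear noncoding RNA were called in 7 of 33, 21.2%, with 5 higher and 2 lower, near the shares over all genes. DICER1, the nuclease that makes mature microRNAs, rose by 0.41 ± 0.09 on the log2 scale, and DIS3, a catalytic subunit of the RNA exosome, rose by 0.34 ± 0.07. PABPN1, the nuclear poly(A)-binding protein, fell from 56.5 ± 2.47 to 44.4 ± 1.07 CPM, a log2 fold change of -0.35 ± 0.07. ZFC3H1, which connects polyadenylated nuclear RNA to the exosome, had a log2 fold change of 0.32 ± 0.09, but its groups overlapped in CPM, and its adjusted p was 0.0680 without control replicate 2 and 0.0771 without control replicate 3.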

How the data were processed

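Total RNA libraries of LN229 cells, 3 per group, were read from 1 deposited table per library. The counts that the authors deposited are whole reads per gene symbol and are not normalised, as their values show. The deposited FPKM values scale them by library and gene length, and the lengths they imply were whole numbers (tolerance 0.001) wherever a gene had a count (21754 genes). The deposited TPM values rescale these and were used for levels per length. FastQC, MultiQC, Trim Galore, HISAT2 and the build hg19 are listed in the submitters' processing notes, whereas the counting program, its annotation and its strand setting were not given in the sources used here.

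Counts were tested in R 4.3.3 with edgeR 4.0.16 (filterByExpr, TMM, glmQLFit, glmQLFTest, group as the only term), which kept 14315 genes with 99.9% of counts, and p-values were adjusted by Benjamini-Hochberg over all of them. Log2 fold changes are labelled knockdown minus control, CPM values use TMM-scaled totals, and no row lacked a gene name. Libraries of 1 group differed from each other by more than counting noise (chi-square divided by its degrees of freedom was 1.95 to 8.54). On simulated counts for the same comparison, with 14208 genes tested, the test recovered 82 of the 100 genes given a 1.5-fold change and 96 of the 100 given a 2-fold change, and made 15 false calls. The changed genes were drawn at random from all tested genes, so these rates do not describe the LINC genes, which had lower counts. Alternatives were limma-voom (limma 3.58.1), DESeq2 1.42.0, its size factors, no filter, a filter on a total of 60, a length offset (lowess span 0.3), a total of 120 for membership, a replicate block and leaving out each library.

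The members, gene lists and tests were chosen with earlier results of these data known. Named were up to 15 called rises and 15 called falls with separate groups, the 8 highest by TPM, 2 genes on either side of the total, a fixed set of studied LINC genes, called flanking genes and up to 4 called genes per list. LINC00537, LINC00707, LINC00888, LINC01089, LINC01355, LINC01963 and LINC02035 fall outside this rule and complete the set of called genes. Promoters, microRNAs and gene order are from RefSeq (GRCh38.p14), matched by symbol, and exon overlaps from GENCODE v29. No hg19 coordinates are given, and 1 cell type marker is not reported here.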

Additional observations from a re-analysis of the deposited data

How the results depend on the processing

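The number of called LINC genes, 36, was 36 with limma-voom, with DESeq2's size factors and with a filter on a total of 60, 40 with no filter, 39 with the length adjustment, and 31 of the genes with a total of at least 120. DESeq2 called 17, with 6 higher and 11 lower, and the replicate block left 20, with 5 higher and 15 lower. Leaving out 1 library gave 17 to 41 called LINC genes, with 4 to 16 higher and 12 to 25 lower: 26, 17 and 19 without control replicates 1, 2 and 3, and 41, 18 and 24 without knockdown replicates 1, 2 and 3. Of the 36 genes, 17 kept the call without control replicate 2. Over all genes the 3330 calls became 1891 with the replicate block and 1826 to 4941 without 1 library. The 64 calls in other noncoding classes ranged from 35 to 87 without 1 library. The 7 calls among RNA turnover genes became 4 with the block and 3 to 12 without 1 library, and the 9 among well-known transcripts 5 and 4 to 12. The cause of these shifts was not tested. Whether replicate numbers pair the samples is not given in the labels. Same-numbered libraries had deviations from their group means that correlated at -0.191, 0.00821 and -0.217, and no control library correlated best with its own number. Deviations within a group of 3 libraries are not independent, so these values cannot decide whether libraries shared a day or culture. Of the values of the 43 named LINC genes under these alternatives, 454 stayed on their side of the threshold, 101 fell short of it, 4 newly passed it and 0 changed direction. Counts limit the rest: the median SE was 0.28 under a log2 CPM of 2 and 0.11 above it, so smaller changes of the scarcer genes may have gone undetected at this depth.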

Other observations

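Below the total of 60, 9 further LINC genes had enough counts in 3 libraries to be tested. A gene that passes through its higher group alone is bound to differ, so the 3 that were called are given as values only, chosen after they were seen. LINC00839 had 16, 13 and 14 counts in the control group and 2, 3 and 5 in the group labelled knockdown, a log2 fold change of -1.87 in edgeR. LINC01914 had 4, 4 and 6 against 12, 10 and 19, a log2 fold change of 1.72. LINC02043 had 15, 14 and 12 against 7, 2 and 7, a log2 fold change of -1.14.

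Antisense transcripts at the loci of 2 of the described LINC genes were also called, and were chosen after their values were seen. KMT2E-AS1, next to KMT2E and LINC01004, fell from 8.56 ± 0.285 to 6.0 ± 0.509 CPM (SD, n = 3), a log2 fold change of -0.51 ± 0.12 (SE). TBX2-AS1 fell from 12.9 ± 0.467 to 8.96 ± 1.07 CPM, a log2 fold change of -0.53 ± 0.11, beside TBX2 and LINC02875.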
